A study of Homo sapiens with 5 samples.

Results

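The surface markers of stem cell state described here are 8 genes chosen by name: THY1, PODXL, PROM1, EPCAM, CD9, CD44, ALPL and ALPPL2. All 8 were found among the 26506 gene symbols of the deposited table. H9 is a line of human embryonic stem cells. Poly(A) RNA was sequenced from 5 cultures of it, with 1 library each. B3GALT5-KO 2iLAF cells carried the B3GALT5-/- genotype and were labelled naive. WT 5iLAF cells were wild type and labelled naive. WT 2iLAF cells were wild type, labelled primed-naive, and serve as the control of the conversion. B3GALT5-KO basal cells (B3GALT5-/-) and WT basal cells (wild type) were labelled primed. B3GALT5 encodes a galactosyltransferase of globo-series glycolipids. 5iLAF is a medium with kinase inhibitors, LIF, activin A and FGF2 that is used to move primed cells towards a naive state, and the labels do not give the composition of 2iLAF. The sources used here do not say whether the knockout line is 1 clone, where the gene was edited, or whether feeder cells were present.

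Pluripotent cells are told apart, sorted and purified by proteins on their surface. THY1 and the alkaline phosphatases are held in the membrane by a glycosylphosphatidylinositol (GPI) anchor, CD9 is a tetraspanin that organises membrane partners, and PODXL is a sialomucin that carries the epitopes of the TRA antibodies. EPCAM joins epithelial cells to each other, PROM1 (CD133) sits in membrane protrusions, and CD44 is the main receptor for hyaluronan. Primed human cells are known for THY1, human naive cells for ALPPL2, and both for PODXL and alkaline phosphatase activity. CD44 and THY1 are also carried by fibroblasts, and CD44 by leukocytes.

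With 1 library per group no difference has a replicate check, no spread can be given and no test was possible. Levels are in TPM, a share of all transcripts that is corrected for transcript length. A gene is called higher or lower where log2((TPM + 1)/(TPM + 1)) was at least 1 in size. The depth behind a value is unknown, since counts were not among its columns. Between 13729 and 14156 genes reached 1 TPM per library. B3GALT5 itself stood at 1.17 TPM in B3GALT5-KO 2iLAF against 5.13 in WT 2iLAF, and the basal pair stood at 5.98 (B3GALT5-KO) and 9.31 (WT), with 2.08 in WT 5iLAF, so transcript level does not check the edit.

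The labelled states were set against marker lists. The 8 primed markers summed to 229 TPM in B3GALT5-KO 2iLAF, 277 in WT 5iLAF, 612 in WT 2iLAF, 1429.7 in B3GALT5-KO basal and 1332 in WT basal. The 9 naive markers summed to 95.03, 116, 30.5, 11.8 and 11.4 TPM in the same order. Among them DNMT3L, a cofactor of DNA methylation, stood at 51.4, 76.4, 1.57, 0.04 and 0.04 TPM. By contrast KLF17 stood at 0 TPM in B3GALT5-KO 2iLAF and 0.12 in WT 5iLAF, DPPA5 at 0 and 0.20, and ARGFX at 0 and 0.05. These defining markers of naive cells were thus absent or nearly so in the libraries labelled naive.

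Transcripts typical of other cell types also differed between libraries. The 10 fibroblast markers, such as collagens and lumican (LUM), summed to 7849.8 TPM in B3GALT5-KO 2iLAF, 3936 in WT 5iLAF, 427 in WT 2iLAF, 143 in B3GALT5-KO basal and 105 in WT basal. DCN and FAP were listed at 0 in the last 3 of these, and stood at 0.33 and 1.34 TPM in WT 5iLAF. In B3GALT5-KO 2iLAF they stood at 48.3 and 3.56 TPM. VIM made up 2354 TPM of the fibroblast sum in B3GALT5-KO 2iLAF, 2065 in WT 5iLAF and 291 in WT 2iLAF. The 10 leukocyte markers summed to 1057 TPM in B3GALT5-KO 2iLAF, 27.0 in WT 5iLAF and between 1.74 and 2.70 in the other libraries. The 7 erythroid markers summed to 220.1 TPM in B3GALT5-KO 2iLAF and 219 in WT basal, against 0.27 to 12.25 elsewhere. Mesoderm and primitive streak markers summed to 505 TPM in B3GALT5-KO 2iLAF and 552 in WT 5iLAF, and to at most 6.77 elsewhere. The 8 neural ectoderm markers summed to 729 TPM in WT 2iLAF, and to at most 43.9 elsewhere. Of the WT 2iLAF sum OTX2 made up 421 TPM, SOX21 101, FEZF1 96.6, LHX5 89.7 and SIX3 20.1. The neural markers PAX6 and SOX1 stood at only 0.27 TPM each there, and LHX2 at 0. The 8 of 9 trophoblast markers in the table summed to 64.0 TPM in WT 2iLAF and to between 12.0 and 15.9 in the others, with CGA listed at 0 in all 5. Of this WT 2iLAF sum KRT7 made up 27.0 TPM and TFAP2A 17.3. Endothelial markers lay between 12.2 and 49.3 TPM, with PECAM1 below 1 TPM in every library. In such bulk RNA, fewer cells of a type and less RNA per cell cannot be told apart.

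**Figure D1:**
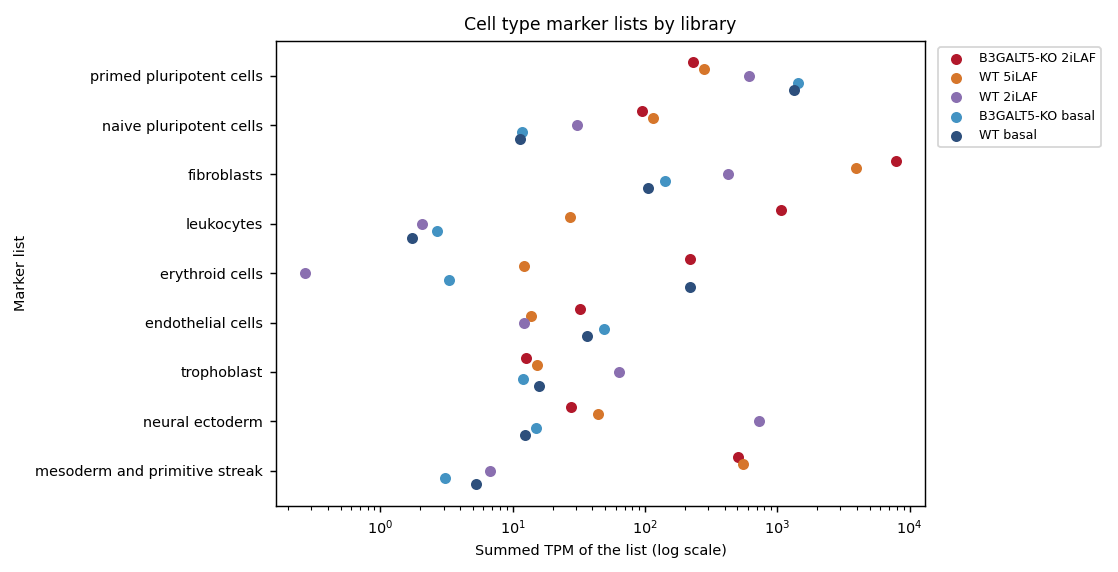
Summed TPM (log scale, horizontal axis) of 9 marker lists (vertical axis) in each of the 5 libraries (coloured points). Fibroblast markers reached 7849.8 TPM in B3GALT5-KO 2iLAF and 105 in WT basal, while neural ectoderm markers peaked in WT 2iLAF at 729.

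Promoter sequences were read from RefSeq (GRCh38.p14), which held 13 starts of 5 members (CD44, ALPL, ALPPL2, PROM1 and CD9). The 250 bases before the start are shown for CD44, the member most raised in both naive libraries, and for the 2 alkaline phosphatases, which stood far apart in level. Capitals mark GGGCGG on either strand (CCGCCC on the other), a motif bound by SP factors and held by 42.6% of the 35116 upstream windows of this length.
CD44, chr11:35138921-35139170, + strand: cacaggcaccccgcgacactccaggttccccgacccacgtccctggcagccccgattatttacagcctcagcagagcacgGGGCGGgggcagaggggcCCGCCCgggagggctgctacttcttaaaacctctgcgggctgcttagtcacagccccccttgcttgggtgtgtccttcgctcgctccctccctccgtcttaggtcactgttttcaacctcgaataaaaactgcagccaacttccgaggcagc
ALPL, the second of 3 starts, chr1:21509173-21509422, + strand: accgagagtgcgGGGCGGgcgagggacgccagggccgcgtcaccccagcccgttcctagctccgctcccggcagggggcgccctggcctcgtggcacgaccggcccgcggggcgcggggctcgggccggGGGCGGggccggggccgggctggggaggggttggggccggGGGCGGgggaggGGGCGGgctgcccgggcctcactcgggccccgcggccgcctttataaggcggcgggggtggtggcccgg
ALPPL2, listed by RefSeq as ALPG, chr2:232406594-232406843, + strand: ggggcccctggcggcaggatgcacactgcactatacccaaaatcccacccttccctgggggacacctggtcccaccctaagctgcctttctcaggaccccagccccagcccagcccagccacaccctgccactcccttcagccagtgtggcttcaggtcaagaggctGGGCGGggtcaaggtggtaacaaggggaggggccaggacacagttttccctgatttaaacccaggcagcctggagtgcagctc
The CD44 window held 15 CG dinucleotides and 2 matches to the motif. The ALPL window held 34 CG and 4 matches, and the ALPPL2 window 2 CG and 1 match, beside a median of 11 CG over all windows. TATAAA, a core promoter motif held by 10.7% of windows on either strand, was found in the ALPL window and not in the other two. CACCTG, a motif bound by ZEB and SNAI factors and held by 17.5% of windows, was found in the ALPPL2 window alone among these. The second ALPL start was printed because it holds the motifs. The other two ALPL starts, not printed, held 9 and 8 CG and no match to any of these motifs. The table gives no level per start, so these letters are a description of the promoters and not of their use.

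Reads can be split between near-identical genes. Of the 50-base words in the protein-coding ALPPL2 transcript (GENCODE 29), 29.3% also occurred in transcripts of its neighbour on chromosome 2, ALPP, the placental alkaline phosphatase. ALPPL2 values are thus uncertain as the values of a single gene. The share was 1.88% for EPCAM and 0.643% for PROM1, and none of the words of THY1, PODXL, CD9, CD44 or ALPL occurred in another gene.

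THY1 showed the widest range of the 8 members. It stood at 37.65 TPM in B3GALT5-KO 2iLAF, 14.3 in WT 5iLAF, 65.7 in WT 2iLAF, 754 in B3GALT5-KO basal and 716 in WT basal. Both basal libraries were therefore more than 10 times higher than any other library. Its place among the 26506 genes, from the most abundant down, was 164 in B3GALT5-KO basal and 179 in WT basal, against 7621 in WT 5iLAF. THY1 is a marker of fibroblasts too. Fibroblast markers summed to 7849.8 TPM in B3GALT5-KO 2iLAF, 3936 in WT 5iLAF, 427 in WT 2iLAF, 143 in B3GALT5-KO basal and 105 in WT basal, and their part in the THY1 levels was not tested.

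CD44 stood at 46.6 TPM in B3GALT5-KO 2iLAF, 28.2 in WT 5iLAF, 2.47 in WT 2iLAF, 3.49 in B3GALT5-KO basal and 2.12 in WT basal. The libraries labelled naive were high and the other 3 low. Fibroblast markers were also highest in those libraries (7849.8 and 3936 TPM), and their part in the CD44 level was not tested. Leukocyte markers summed to 1057 TPM in B3GALT5-KO 2iLAF and 27.0 in WT 5iLAF, against 1.74 to 2.70 elsewhere. All 10 were called higher in B3GALT5-KO 2iLAF against B3GALT5-KO basal, beside 15.9% of all genes. Only LYZ reached 1 TPM in the basal libraries (2.03 TPM in B3GALT5-KO basal), so the other leukocyte markers could not be called lower against them. In WT 5iLAF against WT basal 3 were higher, beside 10.7% of all genes. These were SPI1 (15.7 against 0.05 TPM), LYZ (8.94 against 1.46 TPM) and PTPRC (1.57 against 0.04 TPM). The part of leukocyte markers in the CD44 level was not tested either.

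EPCAM and PROM1, both known from epithelial and progenitor cells, were lower in the naive libraries. EPCAM stood at 68.0 TPM in B3GALT5-KO 2iLAF, 118 in WT 5iLAF, 297 in WT 2iLAF, 265 in B3GALT5-KO basal and 302 in WT basal. PROM1 stood at 20.4, 14.2, 41.9, 54.9 and 63.65 TPM in the same order of libraries. The members differed in where WT 2iLAF stood: EPCAM was near its WT basal level there, at 98.1% of it, and PROM1 at 65.8%.

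CD9 was the only member with its lowest level in WT 2iLAF. It stood at 236 TPM in B3GALT5-KO 2iLAF, 229 in WT 5iLAF, 48.6 in WT 2iLAF, 151 in B3GALT5-KO basal and 154 in WT basal. The lowest value lay in WT 2iLAF and the highest in the libraries labelled naive, so the basal libraries lay between them. WT 2iLAF also had the highest sum of neural ectoderm markers (729 TPM), whose part in the CD9 level was not tested.

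PODXL was the most even member, with a highest level 1.97 times its lowest. It stood at 514 TPM in B3GALT5-KO 2iLAF, 411 in WT 5iLAF, 809.7 in WT 2iLAF, 649.8 in B3GALT5-KO basal and 467 in WT basal. In each of the 5 libraries it lay between places 148 and 350 of all genes. It was the most abundant member in the first 3 of these libraries, and THY1 in the basal ones.

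ALPL, the tissue-nonspecific alkaline phosphatase, stood at 82.9 TPM in B3GALT5-KO 2iLAF, 128 in WT 5iLAF, 272 in WT 2iLAF, 149 in B3GALT5-KO basal and 151 in WT basal. ALPPL2, the germ cell alkaline phosphatase, stood at 1.27, 1.39, 1.92, 0.45 and 0.29 TPM in that order. Both were highest in WT 2iLAF, and ALPPL2 stayed below 2 TPM throughout. ALPP lay between 0.07 and 0.54 TPM and ALPI, the intestinal enzyme, was at 0.06 TPM or below. ALPL therefore made up nearly all alkaline phosphatase transcripts in every library, those labelled naive included (82.9 of 84.4 TPM in B3GALT5-KO 2iLAF, 128 of 129.6 in WT 5iLAF and 151 of 152 in WT basal).

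The members summed to 1007 TPM in B3GALT5-KO 2iLAF, 944 in WT 5iLAF, 1539 in WT 2iLAF, 2028 in B3GALT5-KO basal and 1857 in WT basal. The naive libraries had the lowest sums, and THY1 alone made up 754 and 716 TPM of the basal ones.

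**Figure D2:**
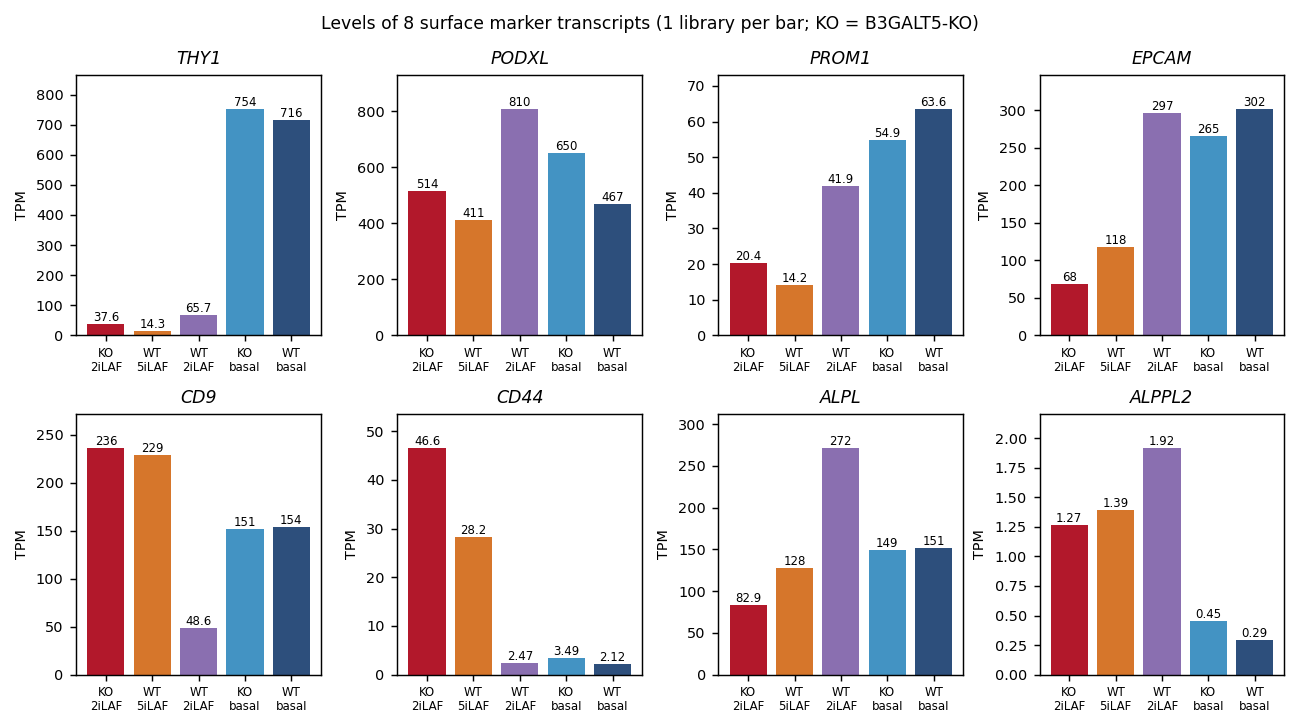
TPM (vertical axes, each from 0) of the 8 surface markers in the 5 libraries, 1 bar per library. THY1 stands out in both basal libraries (754 and 716 TPM), CD44 in B3GALT5-KO 2iLAF (46.6) and WT 5iLAF (28.2), and CD9 is lowest in WT 2iLAF (48.6).

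The first comparison asks what loss of B3GALT5 does in basal medium. Of the 8 surface markers 0 passed the 2-fold rule between B3GALT5-KO basal and WT basal. Of 15761 genes 1.76% did, 0.704% higher and 1.05% lower. The widest ratios were those of CD44 (3.49 against 2.12 TPM, log2 ratio 0.53) and PODXL (649.8 against 467 TPM, 0.48). THY1, CD9 and ALPL had ratios of 0.08, -0.02 and -0.02. The CD9 and ALPL ratios turned positive, 0.06 and 0.07, under median-ratio scaling, so no direction is given for them. The members' median was 0.03 and that of all genes -0.06.

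WT 5iLAF cells were set against WT basal cells. THY1 stood at 14.3 against 716 TPM (log2 ratio -5.55, or 49.9-fold lower), the sixth lowest ratio of 15761 genes. PROM1, at 14.2 against 63.65 TPM, and EPCAM, at 118 against 302 TPM, were lower by log2 ratios of -2.09 and -1.35. CD44 was 13.3-fold higher, at 28.2 against 2.12 TPM (3.23), at place 218 from the highest ratio. Thus 3 members were lower and 1 higher. Of all genes 11.4% were lower and 10.7% higher, or 22.1% in either direction. PODXL (-0.18), ALPL (-0.24), CD9 (0.57) and ALPPL2 (0.89) did not pass, although ALPPL2 stood at 1.39 against 0.29 TPM and passed with a pseudocount of 0.1 (1.93). The median size of a log2 ratio, its sign dropped, was 1.12 over the members and 0.45 over all genes.

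B3GALT5-KO 2iLAF cells were set against B3GALT5-KO basal cells. THY1, EPCAM and PROM1 were lower and CD44 higher here as well, in a comparison that shares no library with the previous one. THY1 stood at 37.65 against 754 TPM (log2 ratio -4.29), EPCAM at 68.0 against 265 (-1.95) and PROM1 at 20.4 against 54.9 (-1.38). CD44 stood at 46.6 against 3.49 TPM (3.41, 13.4-fold higher), beside a leukocyte marker sum of 1057 against 2.70 TPM and a fibroblast marker sum of 7849.8 against 143 TPM. Of all genes 27.7% passed, 15.9% higher and 11.8% lower. ALPL, at 82.9 against 149 TPM (-0.84), and CD9, at 236 against 151 TPM (0.64), did not pass. Genotype and medium differ between these naive libraries (5iLAF for WT, 2iLAF for the knockout), so the sizes of the ratios are given side by side and not compared.

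WT 2iLAF cells, the control, were set against WT basal cells. THY1 was 10.9-fold lower, at 65.7 against 716 TPM (log2 ratio -3.43), at place 34 from the lowest ratio of 15761. CD9 was also lower, at 48.6 against 154 TPM (-1.64). ALPPL2 was called higher at 1.92 against 0.29 TPM (1.18), a call lost with a pseudocount of 5 (0.39) and with FPKM (0.83). CD44 was near level, at 2.47 against 2.12 TPM (0.15), and so was EPCAM, at 297 against 302 TPM (-0.03), whose sign turned under median-ratio scaling (0.15). PODXL and ALPL had ratios of 0.79 and 0.84. So 1 member was higher and 2 lower. Of all genes 11.8% passed, 745 higher (4.73%) and 1107 lower (7.02%). Their median of -0.13 went to 0.00 under median-ratio scaling, which gave 958 higher and 828 lower and took ALPL just past the rule.

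Knockout and WT cells were then compared in 2iLAF. In B3GALT5-KO 2iLAF cells CD44 stood at 46.6 TPM against 2.47 in WT 2iLAF (log2 ratio 3.78, 18.9-fold higher) and CD9 at 236 against 48.6 TPM (2.26). EPCAM, at 68.0 against 297 TPM (-2.11), ALPL, at 82.9 against 272 TPM (-1.70), and PROM1, at 20.4 against 41.9 TPM, were lower. PROM1 lay at the threshold and was not called with a pseudocount of 5 (-0.88). THY1, at 37.65 against 65.7 TPM, had a ratio of -0.79. So 2 members were higher and 3 lower, beside 27.4% of all genes in either direction, 16.6% higher and 10.8% lower. Fibroblast markers (7849.8 against 427 TPM), leukocyte markers (1057 against 2.08 TPM) and neural ectoderm markers (27.7 against 729 TPM) differed between the same libraries, and their part in these ratios was not tested.

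The libraries labelled naive were the other close pair. B3GALT5-KO 2iLAF and WT 5iLAF differed past the size rule in 1 member of 8, beside 5.93% of all genes, 4.9% higher and 1.03% lower. That member was THY1, at 37.65 against 14.3 TPM (log2 ratio 1.33). CD44 had a ratio of 0.70, EPCAM -0.79 and ALPL -0.62. The median size of a log2 ratio, its sign dropped, was 0.56 over the members and 0.18 over all genes. CD9 stood at 236 against 229 TPM (0.04), a sign that turned with FPKM (-0.00). Fibroblast markers stood at 7849.8 against 3936 TPM and leukocyte markers at 1057 against 27.0 TPM in this pair, and their part in the THY1 ratio was not tested. The comparisons in 2iLAF and against WT 5iLAF share the B3GALT5-KO 2iLAF library.

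**Figure D3:**
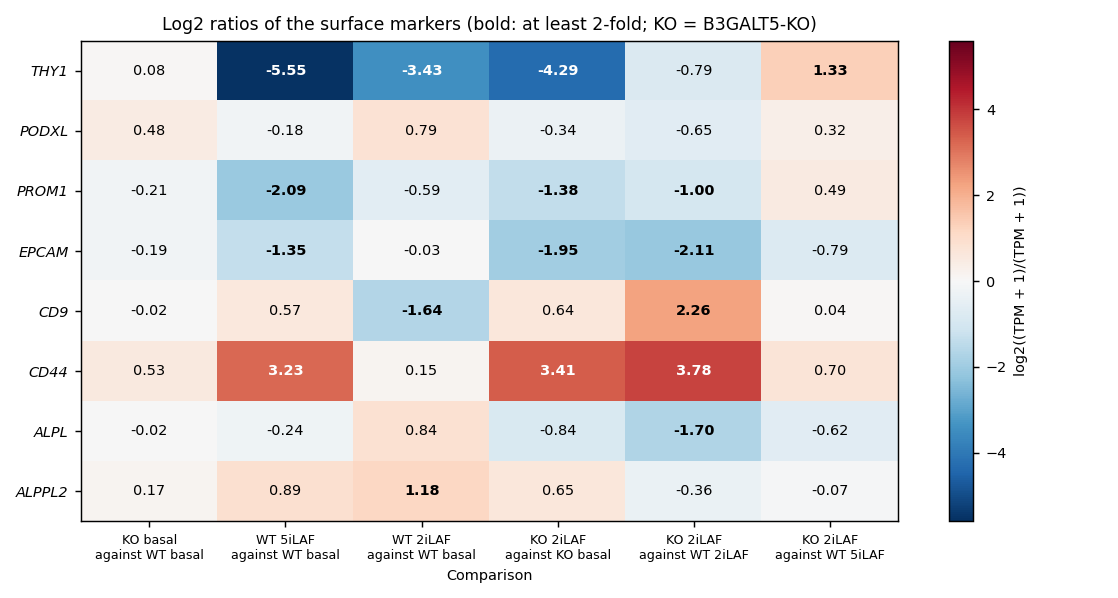
Log2((TPM + 1)/(TPM + 1)) of the 8 surface markers (rows) in 6 comparisons (columns), with the first-named library over the second and bold print for ratios of at least 1 in size. THY1 reaches -5.55 in WT 5iLAF against WT basal, CD44 3.78 in B3GALT5-KO 2iLAF against WT 2iLAF, and the column of B3GALT5-KO basal against WT basal holds no bold value.

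The change from basal medium to 2iLAF differed between the genotypes for some members. CD44 changed by 3.41 on the log2 scale in B3GALT5-KO and by 0.15 in WT cells, and EPCAM by -1.95 and -0.03. CD9 changed by 0.64 in B3GALT5-KO and -1.64 in WT, ALPL by -0.84 and 0.84, and PODXL by -0.34 and 0.79. For CD9, ALPL and PODXL the signs were opposite. THY1 was lower in 2iLAF in both genotypes (-4.29 in B3GALT5-KO and -3.43 in WT). With 1 library per group these differences of changes were not tested.

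The distance between libraries over the 8 members was taken as the root mean square difference of log2(TPM + 1). It was least for B3GALT5-KO basal and WT basal, 0.28, and next for B3GALT5-KO 2iLAF and WT 5iLAF, 0.67. Over all tested genes the same pairs stood at 0.38 and 0.56. WT 2iLAF lay 1.48 from WT basal, 1.77 from WT 5iLAF and 1.90 from B3GALT5-KO 2iLAF over the members. The widest distance was 2.46, between WT 5iLAF and WT basal. By these markers WT 2iLAF was nearer to the basal than to the naive libraries, although its THY1 level was not.

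Members were also compared with each other and with other genes by their profile, that is log2(TPM + 1) minus its mean over the 5 libraries. Among members the nearest profiles were those of PODXL and ALPL (root mean square difference 0.40) and of PROM1 and EPCAM (0.46), and the farthest those of THY1 and CD44 (3.70). Among 10375 other genes reaching 10 TPM, CD44 was nearest to QPCT (0.16), a glutaminyl cyclase, and RNF128 (0.19), a ubiquitin ligase. QPCT stood at 16.6 TPM in B3GALT5-KO 2iLAF and 7.56 in WT 5iLAF, against 0.06 to 0.31 elsewhere. EPCAM was nearest to RNF157 (0.08) and to B3GALT5-AS1 (0.10), the antisense transcript named after the targeted gene. The kit keeps strand, but the strand setting of the counting is not known, so its reads and those of B3GALT5 may not be told apart. B3GALT5-AS1 stood at 4.74 TPM in B3GALT5-KO 2iLAF, 6.93 in WT 5iLAF, 20.7 in WT 2iLAF, 19.4 in B3GALT5-KO basal and 21.9 in WT basal.

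CD9 was nearest to APCDD1 (0.07), an inhibitor of WNT signalling, and ETS1 (0.12), a transcription factor. ETS1 stood at 61.8 TPM in B3GALT5-KO 2iLAF, 68.7 in WT 5iLAF, 10.6 in WT 2iLAF, 39.2 in B3GALT5-KO basal and 39.0 in WT basal. PROM1 was nearest to HLA-DPB1 (0.11) and WWC1 (0.12), ALPL to GUSBP3 (0.08) and CCDC24 (0.10), and PODXL to HCFC1R1 (0.06) and IFI27L2 (0.07). Nearest to THY1 were VSNL1, a neuronal calcium sensor, and TMEM59L, both 0.46 from it. This distance is not scaled to a gene's range. THY1 had the widest range of the members, so its 0.46 cannot be set against the smaller distances of the others. ALPPL2 was matched by SLC44A2 (0.08) and FAM46B (0.10), on a scale that compresses levels as low as those of ALPPL2. With 5 libraries many genes share a profile, so likeness is a description.

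**Figure D4:**
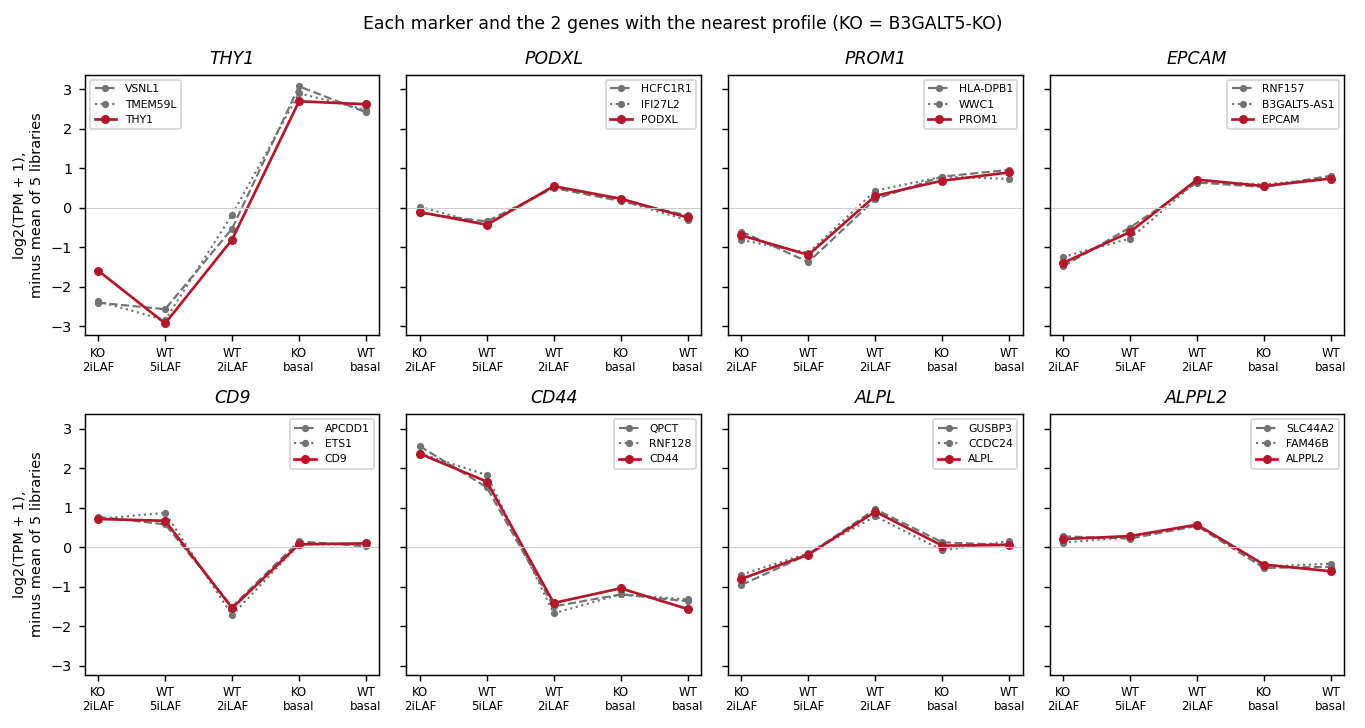
Log2(TPM + 1) minus its mean over the 5 libraries (vertical axis) for each surface marker (red) and the 2 genes with the nearest profile (grey), by library (horizontal axis). PODXL and HCFC1R1 almost coincide (0.06), and VSNL1 and TMEM59L lie 0.46 from THY1, the member with the widest range.

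The lists of partner genes are given by counts, beside the shares of all genes past the rule: 22.1% in WT 5iLAF against WT basal (10.7% higher), 27.7% in B3GALT5-KO 2iLAF against B3GALT5-KO basal (15.9% higher) and 11.8% in WT 2iLAF against WT basal. Some genes, among them ALPPL2, HAS1, CD37, CD53, ITGB3, ITGAM, ITGB2 and ENPEP, were below 1 TPM in both basal libraries and entered through other libraries. With a pseudocount of 1 they could not be called lower against a basal library, so the direction of their calls there carries no information. Partners of CD44 differed in both directions in the naive libraries. Of 12 ligand, cytoskeleton and splicing partners, 4 were higher and 4 lower in WT 5iLAF against WT basal, and 5 higher and 4 lower in B3GALT5-KO 2iLAF against B3GALT5-KO basal. HAS2, a hyaluronan synthase, stood at 53.8 against 5.33 TPM and at 42.7 against 2.48 TPM in these comparisons. HAS3, another synthase, went the other way, at 2.79 against 60.7 TPM and 3.51 against 30.6 TPM. SPP1, osteopontin, a CD44 ligand, stood at 723 against 33.0 TPM and at 620.1 against 66.2 TPM. ESRP1, a splicing factor that favours the variant exons of CD44, stood at 13.45 against 125 TPM and at 7.74 against 117 TPM. The deposited values are per gene, so CD44 isoforms were not analysed here. CD74 (3.68 against 66.1 TPM in WT 5iLAF) was lower too. Between the basal libraries SPP1 came closest to the rule (0.98 on the log2 scale) and passed after median-ratio scaling. In WT 2iLAF against WT basal no partner was higher and 2 were lower, HAS2 and HAS3, and HAS2 lost its call under median-ratio scaling.

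The counter-receptors of THY1 are integrins and SDC4, a syndecan. Of these 8 genes 4 passed in WT 5iLAF against WT basal, and 5 in B3GALT5-KO 2iLAF against B3GALT5-KO basal. Of the genes that could not be called lower, ITGB3 and ITGB2 were in both counts and ITGAM in the second. ITGA5 stood at 146 against 31.95 TPM and at 140.0 against 33.7 TPM, and ITGAV at 48.3 against 20.6 TPM and at 75.3 against 16.95 TPM. ITGB3 stood at 6.53 against 0.14 TPM and at 8.49 against 0.13 TPM. SDC4 (0.05 and 0.24 on the log2 scale) and ITGB1 (0.39 and 0.70) did not pass. ITGB2 and ITGAM are leukocyte integrins, and ITGAM, at 3.47 TPM in B3GALT5-KO 2iLAF, was at most 0.31 TPM elsewhere. In WT 2iLAF against WT basal 4 were lower, among them ITGB5 (43.6 against 187 TPM), and after median-ratio scaling ITGB5 alone.

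Some partners and relatives of EPCAM and PROM1 set WT 2iLAF apart from the naive libraries. CLDN7, a claudin bound by EPCAM, stood at 8.99 TPM in B3GALT5-KO 2iLAF, 12.9 in WT 5iLAF, 188 in WT 2iLAF, 137 in B3GALT5-KO basal and 127 in WT basal. CDH1, E-cadherin, stood at 25.1, 31.1, 233, 116 and 115 TPM. Of the 7 genes 4 were lower and 1 higher in WT 5iLAF against WT basal, 3 lower and none higher in B3GALT5-KO 2iLAF against B3GALT5-KO basal, and 3 higher and none lower in WT 2iLAF against WT basal. The higher genes in WT 2iLAF were CDH1, TTYH1 (86.25 against 16.5 TPM) and TTYH2 (12.7 against 3.39 TPM), the last 2 from a family of membrane proteins that bind PROM1. TTYH2 was also the 1 gene called higher in WT 5iLAF (7.91 against 3.39 TPM in WT basal). TTYH3 stood at 83.9 TPM in B3GALT5-KO 2iLAF, 89.95 in WT 5iLAF, 78.5 in WT 2iLAF, 134 in B3GALT5-KO basal and 135 in WT basal. PROM2, the PROM1 paralog, stayed at 4.91 TPM or below. Of the PODXL family, PODXL2 was lower in WT 5iLAF (10.6 against 56.2 TPM in WT basal) and in B3GALT5-KO 2iLAF (8.80 against 47.7 TPM in B3GALT5-KO basal), and CD34 did not reach 1 TPM. EZR, ezrin, which ties PODXL and CD44 to actin, stood at 293 against 140.2 TPM and at 407 against 127 TPM in these comparisons. SLC9A3R1 and SLC9A3R2, scaffold proteins that bind PODXL, were called lower in WT 5iLAF (-1.02 each), calls that median-ratio scaling removed.

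Among the 16 tetraspanins and CD9 partners, 3 were higher and 1 lower in WT 5iLAF against WT basal, and 5 higher and 1 lower in B3GALT5-KO 2iLAF against B3GALT5-KO basal. CD81, a tetraspanin related to CD9, stood at 625 against 294 TPM and at 598 against 257 TPM. PTGFRN, which binds both, stood at 53.9 against 17.35 TPM and at 49.0 against 16.9 TPM. CD37 and CD53 were among the 5 higher genes. CD151 stood at 261 against 103 TPM, and at 249 against 134.5 TPM in the knockout comparison, where it did not pass (0.89 on the log2 scale). TSPAN7 was the lower gene in both (log2 ratios -1.39 and -1.78). In WT 2iLAF, where CD9 was lowest, CD81 stood at 268 TPM against 294 in WT basal and CD63 at 506 against 492 TPM. IGSF8, ITGB1 and ITGA6 were called lower there (-1.11, -1.08 and -1.15), and none of them after median-ratio scaling. The leukocyte tetraspanin CD53 stood at 9.17 TPM in B3GALT5-KO 2iLAF and at 0.47 TPM or below elsewhere.

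THY1, ALPL and ALPPL2 need the enzymes that make and remodel the GPI anchor. Of 12 genes of anchor synthesis, remodelling and release none was higher and 1, PGAP1, was lower in WT 5iLAF against WT basal (3.57 against 9.55 TPM). In B3GALT5-KO 2iLAF against B3GALT5-KO basal PIGA was higher (11.2 against 4.22 TPM) and PGAP1 lower (2.86 against 8.07 TPM). In WT 2iLAF against WT basal none passed.

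Of 10 further markers of human pluripotent cells, 3 were lower and 2 higher in WT 5iLAF against WT basal, and 4 lower and 3 higher in B3GALT5-KO 2iLAF against B3GALT5-KO basal. ALCAM joined the higher genes in WT 5iLAF after median-ratio scaling. CD24, a primed marker, stood at 442 TPM in B3GALT5-KO 2iLAF, 412 in WT 5iLAF, 1329.9 in WT 2iLAF, 1453 in B3GALT5-KO basal and 1382 in WT basal. For B3GAT1, the enzyme behind the CD57 epitope, the levels were 0.92, 2.43, 19.8, 19.65 and 22.8 TPM in that order. TDGF1, a nodal co-receptor, was lowest in WT 2iLAF, at 69.25 TPM, against 519.5 in WT basal. CDH2, N-cadherin, stood at 187 and 186 TPM in the naive libraries and at 72.5 TPM in WT 2iLAF. The basal levels were 23.8 (B3GALT5-KO) and 36.1 TPM (WT). In WT 2iLAF against WT basal 2 of the 10 were higher and 1 lower, and CDH2 (0.99) passed after median-ratio scaling.

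Of 6 surface markers associated with human naive cells, 4 were higher in WT 5iLAF against WT basal, 3 in B3GALT5-KO 2iLAF against B3GALT5-KO basal, and none in WT 2iLAF against WT basal, with none lower in these. IL6ST, the shared receptor subunit of LIF signalling, stood at 60.1 TPM in B3GALT5-KO 2iLAF, 31.95 in WT 5iLAF, 1.72 in WT 2iLAF, 2.68 in B3GALT5-KO basal and 2.96 in WT basal. SUSD2 stood at 15.4, 14.8, 3.29, 4.85 and 3.22 TPM, and CD7 at 4.20, 5.63, 2.94, 1.13 and 0.99 TPM. LIFR, the LIF-binding subunit, stood at 10.7, 11.7, 2.56, 4.95 and 4.47 TPM, CD320 at 82.1, 105, 56.9, 112 and 107 TPM, and ENPEP at 1.53 TPM or below. For CD7 the WT 2iLAF ratio passed after median-ratio scaling. CD7 could not be called lower against WT basal (0.99 TPM there), nor ENPEP against either basal library.

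**Figure D5:**
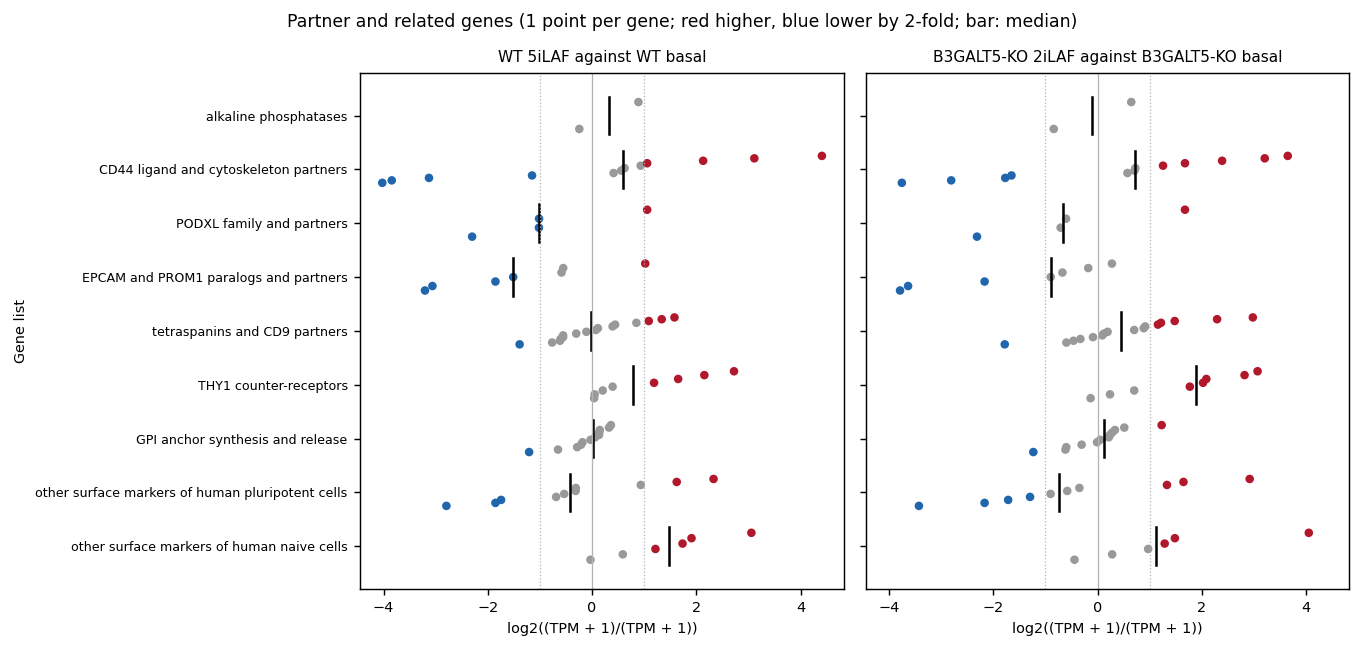
Log2((TPM + 1)/(TPM + 1)) (horizontal axis) of genes in 9 lists of partners and related surface genes (vertical axis), in WT 5iLAF against WT basal (left) and B3GALT5-KO 2iLAF against B3GALT5-KO basal (right). Points are genes that reached 1 TPM in a library, bars are list medians, and of the 8 THY1 counter-receptors 4 (left) and 5 (right) lie past the rule, ITGB3 and ITGB2 among them in both panels, which could not be called lower.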

How the data were processed

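The deposited table gave 1 TPM and 1 FPKM value per gene and library, made by the authors, per the file headers. The submitters' processing notes name Trimmomatic 0.39, Bowtie2 2.3.4.1 and RSEM 1.2.28 with hg19, without roles. No source used here gives the annotation or the strand setting, and the kit was stranded and selected poly(A) RNA, per the labels' protocols. RSEM shares ambiguous reads by estimate. Another 18 columns were empty. Low FPKM values (0.15 to 0.6) showed no common step between libraries: at most 7.09% of genes fell in 1 bin of 0.05 on the log2 scale, so whole reads were not recovered.

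TPM was compared as log2((TPM + 1)/(TPM + 1)) in 6 pairs of libraries, with a 2-fold size rule and no test. Genes reaching 1 TPM in at least 1 library entered (15761). All 8 members did, ALPPL2 by its levels outside basal medium. The size rule was run on simulated data with large built-in changes and an assumed noise. Such data cannot show the noise between these libraries or check the calls. Members, lists and alternatives were chosen with earlier results of these data known. Genes could be named if they were members, the targeted gene, the 2 nearest in profile (reaching 10 TPM), in a list of up to 8, or among the 5 largest ratios of a longer list (reaching 10 TPM). CD63, CD53, CD37, HAS1, PTPRC, PGAP1, ITGA6, IGSF8, FAP, KLF17, DPPA5 and ARGFX were named after their values were seen. The values of 1 list gene are not reported here. Promoter sequences came from RefSeq by symbol. Python 3.11.15, numpy 2.4.6, pandas 2.3.3 and matplotlib 3.10.9 were used.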

Additional observations from a re-analysis of the deposited data

Results flagged for a closer look

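For 3 members the change from basal medium to 2iLAF had opposite signs in the genotypes, each with 1 library per group, and the difference was not tested. For CD9 the change in B3GALT5-KO cells exceeded that in WT cells by 2.28 on the log2 scale. For ALPL the change in B3GALT5-KO minus that in WT was -1.68, and for PODXL it was -1.13. For ALPL and PODXL the change passed the 2-fold rule in neither genotype. Members whose changes had the same sign were not picked out here, although CD44 (3.25) and EPCAM (-1.92) had differences of similar or larger size.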

How the results depend on the processing

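Of 282 member ratios recomputed under other pseudocounts, filters, scaling and FPKM, 276 kept their side of the size rule. Of the others 3 passed newly and 3 no longer did (ALPPL2 in 4 cases, PROM1 and ALPL in 1 each), and no called ratio changed sign. A filter does not enter a ratio, so the 48 ratios without a filter and the 42 with a 5 TPM filter could not change. A 5 TPM filter removed ALPPL2. With a 1.5-fold rule 6 members passed in WT 2iLAF against WT basal (3 with the 2-fold rule), 7 in B3GALT5-KO 2iLAF against B3GALT5-KO basal (4) and 4 in B3GALT5-KO 2iLAF against WT 5iLAF (1). With a 4-fold rule these were 1, 2 and 0, and B3GALT5-KO 2iLAF against WT 2iLAF had 3 (5). The share of all genes past the rule moved more: over the 6 comparisons it was 1.76% to 27.7%, against 5.38% to 35% with a pseudocount of 0.1, 0.47% to 14.1% with 5, and 1.05% to 16.5% without the filter. With 1.5-fold and 4-fold rules it was 7.63% to 48.1% and 0.279% to 9.06%. With FPKM it was 1.11% between the basal libraries. No paired analysis was possible because each group holds 1 library. No library could be left out within a group. Depth is unknown, so precision of low values such as ALPPL2 cannot be given.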
